A study of Mus musculus with 9 samples.

Results

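The mitochondrial respiratory chain and ATP synthase are described here through 84 nuclear genes, out of 22103 genes that the array annotation names alone on at least 1 probe set. Members were taken by name: symbols beginning with Ndufa, Ndufb, Ndufc, Ndufs, Ndufv, Uqcr, Cox4i, Cox5, Cox6, Cox7, Cox8 or Atp5, and the 4 symbols Sdha, Sdhb, Sdhc and Sdhd. The series measured RNA in cultured cortical neurons, taken from C57BL/6 mice on embryonic day 15 and given a short hairpin RNA by lentivirus. The groups were shTdp-43-1 and shTdp-43-2, 2 hairpins against Tdp-43, and shCont, the control hairpin, with 3 arrays each. All 9 samples shared the same handling: AraC, which kills dividing cells, on the day after plating, infection on day 5 for 4 h and harvest on day 11. The series' own design text speaks of motor neurons, and the sample labels, which were followed, of cortical neurons. The cultures were not sorted, so the signal comes from all cells in the dish, and fewer cells of a type and less RNA per cell cannot be told apart. No label says that the 3 arrays of a group came from separate cultures or animals, so the p-values measure the spread between these samples, which may be technical.

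The respiratory chain moves electrons from fuel to oxygen through the inner mitochondrial membrane and pumps protons out as it does so. Complex I takes electrons from NADH and complex II takes them from succinate, complex III passes them on to cytochrome c, and complex IV hands them to oxygen. ATP synthase lets the protons back in and makes ATP, on which firing neurons depend heavily. Complexes I, III and IV and ATP synthase mix subunits encoded in the nucleus with others encoded in the mitochondrial genome, while complex II is wholly nuclear. Tdp-43, encoded by Tardbp, is an RNA-binding protein that acts on splicing and RNA stability.

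Values are log2 signals of Affymetrix Mouse Exon 1.0 ST arrays, whose probe sets lie along the exons. Each gene was read as the average of its probe sets whose mean on the 9 arrays reached the table median of 6.07. Of 730 probe sets of the members, 673 passed, and 83 members were tested among 20143 genes; Cox7b2, a testis form of a complex IV subunit, had none that passed. A further 24 probe sets that name a member and another gene were not used. A change is the log2 difference between group means, tested with limma in a model of all 3 groups, and a gene was called at a Benjamini-Hochberg adjusted p under 0.05 over all 20143 genes. Levels of different genes were not compared, since their probes differ.

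The arrays of a group correlated at 0.979 to 0.991 across genes, and the lowest correlation of any pair was 0.965. Tardbp, the target, read 7.84, 8.23 and 8.55 with shTdp-43-1, 8.22, 8.58 and 7.90 with shTdp-43-2, and 9.77, 9.94 and 10.06 with shCont. It fell to 30.4% of the shCont level with shTdp-43-1 (-1.72 on the log2 scale, SE 0.201, limma adjusted p = 0.00231). With the other hairpin, shTdp-43-2, it fell to 30.9% (-1.69, SE 0.201, limma adjusted p = 0.000773). Both hairpins are set against the same 3 shCont arrays. Markers of neurons (9 tested of 10) averaged log2 11.50 to 11.62 with shTdp-43-1, 11.52 to 11.65 with shTdp-43-2 and 11.63 to 11.73 with shCont. Nefl (-0.60 and -0.45 with shTdp-43-1 and shTdp-43-2) and Nefm (-0.76 and -0.39) had the lowest changes. The other tested markers had -0.07 to 0.21 with shTdp-43-1 and -0.09 to 0.07 with shTdp-43-2. The median change of the 9 was -0.02 and -0.05.

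With shTdp-43-2, 8 of the 83 tested members fell and 0 rose, by limma. They were Ndufs1, Ndufs3, Ndufb5 and Ndufc2 of complex I, Sdha of complex II, Atp5a1 and Atp5pb of ATP synthase, and Ndufaf1, which helps to assemble complex I. This is 9.64% of the members, beside 9.92% of all genes tested called lower and 5.58% called higher, so the share of lower calls was near the background. With shTdp-43-1, 0 of 83 members were called in either direction, beside 3.36% of all genes called lower and 3.27% called higher. At an unadjusted p under 0.05, 15 members were lower and 2 higher with shTdp-43-2, beside 17.3% and 11.3% of all genes, so the lower count was near the background here too. At the same threshold 1 member was lower and 2 were higher with shTdp-43-1, beside 11.4% and 12.2% of all genes. For shTdp-43-1 the median log2 change of the members was -0.02 (0.02 over all genes), and for shTdp-43-2 it was -0.04 (0.00 over all genes). Centring each array on its median put these medians of the members at 0.00 and 0.02, beside 0.05 and 0.07 over all genes. On all 3 arrays, 5 members were lower and 4 higher with shTdp-43-1 than on any shCont array, beside 15.6% and 16.5% of all genes. For shTdp-43-2 these counts were 21 lower and 6 higher, beside 20.3% and 14.1% of all genes. The same centring turned the split of calls over all genes with shTdp-43-2, to 1666 lower and 1826 higher, beside 1999 lower and 1123 higher in the deposited scaling. The count of 8 depended on single arrays. Leaving out shTdp-43-2 replicate 1 gave 2 calls, and leaving out its replicate 3 gave 3. It was 4 when replicate 2 of shTdp-43-1 was left out, and 3, 4 and 3 when replicates 1, 2 and 3 of shCont were.

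**Figure D1:**
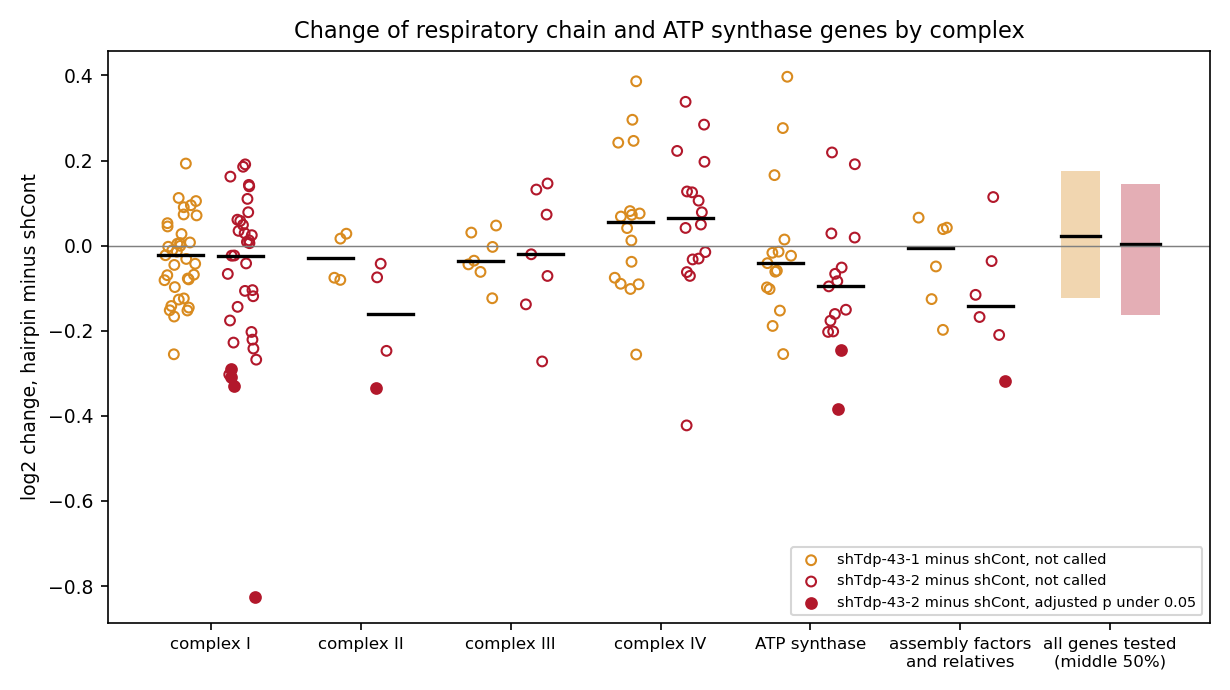
Log2 change against shCont of each tested member, grouped by complex, with shTdp-43-1 (orange, left) and shTdp-43-2 (red, right); black bars are medians, filled points passed an adjusted p under 0.05, and boxes at the right span the middle 50% of all genes tested. Ndufs1 lies alone at the bottom at -0.83 with shTdp-43-2, and complex IV has its medians above 0 with both hairpins.

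The 4 promoters below belong to the called members with the largest fall that the RefSeq promoter table holds, and are shown because these genes moved in the same direction. Each window runs from 250 bases before the transcription start to 50 after it (RefSeq, GRCm38.p6), 5′ to 3′ on the gene's strand. Capitals mark letters known as binding motifs of factors that act at many nuclear genes for mitochondria: NRF1 (GCGCA and GCGC with any 1 base between them), the ETS family to which Gabpa belongs (CCGGAAG) and YY1 (AAGATGGC), on either strand. The Atp5pb window is chr3:105959214-105959513 on the minus strand, Sdha chr13:74350191-74350490 on the minus strand, Ndufb5 chr3:32736813-32737112 on the plus strand, and Ndufaf1 chr2:119662785-119663084 on the minus strand.
Atp5pb: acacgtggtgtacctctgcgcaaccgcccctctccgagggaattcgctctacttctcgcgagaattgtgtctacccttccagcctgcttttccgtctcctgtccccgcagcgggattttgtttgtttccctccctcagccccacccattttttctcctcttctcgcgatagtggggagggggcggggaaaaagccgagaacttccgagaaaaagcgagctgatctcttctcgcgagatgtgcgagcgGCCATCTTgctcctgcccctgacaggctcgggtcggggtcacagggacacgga
Sdha: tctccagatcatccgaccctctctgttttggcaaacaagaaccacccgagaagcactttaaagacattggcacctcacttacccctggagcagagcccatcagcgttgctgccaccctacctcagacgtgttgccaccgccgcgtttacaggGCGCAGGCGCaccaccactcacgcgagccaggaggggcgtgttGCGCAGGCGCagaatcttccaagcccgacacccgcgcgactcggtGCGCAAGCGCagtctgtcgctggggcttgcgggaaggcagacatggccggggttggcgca
Ndufb5: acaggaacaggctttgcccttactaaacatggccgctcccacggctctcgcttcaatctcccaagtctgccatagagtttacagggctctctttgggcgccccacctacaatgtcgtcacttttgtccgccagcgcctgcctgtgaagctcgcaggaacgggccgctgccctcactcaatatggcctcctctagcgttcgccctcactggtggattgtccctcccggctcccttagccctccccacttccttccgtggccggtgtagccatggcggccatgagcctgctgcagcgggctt
Ndufaf1: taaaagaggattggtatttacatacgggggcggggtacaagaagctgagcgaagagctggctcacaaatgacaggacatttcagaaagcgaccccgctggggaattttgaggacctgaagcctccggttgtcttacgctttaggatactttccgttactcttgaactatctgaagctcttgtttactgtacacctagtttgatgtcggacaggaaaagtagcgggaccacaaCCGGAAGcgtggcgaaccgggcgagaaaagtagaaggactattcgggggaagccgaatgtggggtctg

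The Sdha window holds the NRF1 letters 3 times, the Atp5pb window holds the YY1 letters once on the reverse strand, the Ndufaf1 window holds the ETS letters once, and the Ndufb5 window holds none of the 3. Promoter windows were in the table for 69 members (75 windows). The NRF1 letters were in 24% of the members' windows and 4.6% of all 32851 windows. The ETS letters were in 22.7% of the members' windows and 8.86% of all, and the YY1 letters in 16% and 2.75%. At least 1 of the 3 was in 41 of the 75 windows of members (54.7%), against 14.7% of all windows, and in 4 of the 6 windows of members that fell with shTdp-43-2. Of those 6, the NRF1 letters were in 1, the ETS letters in 2 and the YY1 letters in 1. The motif lengths were chosen with these windows in view, no motif overlaps another in the printed windows, and a match is a run of letters, not a measured site.

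Complex I had 35 tested subunits, of which 4 fell with shTdp-43-2 and 0 were called with shTdp-43-1. The 4 were 11.4% of the complex, near the 9.92% of all genes called lower with shTdp-43-2. Its 6 tested core subunits were all below 0 with shTdp-43-2, beside 49.3% of all genes. Most of them carry the flavin or the iron-sulphur clusters that electrons pass through. Their median was -0.22, and the count of 6 was the same under both other scalings. With shTdp-43-1, 5 of the 6 were below 0, beside 46.1% of all genes, or 4 with arrays centred and 3 with quantile normalization. The 29 accessory subunits, which surround the core, had a median of 0.01 and 2 calls. Core subunits had 9 to 21 probe sets that passed, and accessory ones 1 to 13. Over all genes the shTdp-43-2 median was 0.062 with 1 to 5 such probe sets and -0.055 with 12 or more. Whether the number of probe sets plays a part in the difference between core and accessory subunits was not tested.

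Ndufs1, the largest core subunit and an iron-sulphur protein of the arm that takes electrons from NADH, had the largest change of any member. It read 10.12, 10.01 and 9.95 with shTdp-43-1, 9.29, 9.45 and 9.09 with shTdp-43-2, and 10.06, 10.11 and 10.13 with shCont. All shTdp-43-2 arrays lie below every other array, and the shTdp-43-1 arrays overlap with shCont. Its level with shTdp-43-2 was 56.4% of shCont (log2 change -0.83 ± 0.0998 SE, 95% interval -1.05 to -0.60, limma adjusted p = 0.000845). With shTdp-43-1 it was 94.8% of shCont (log2 change -0.08, 95% interval -0.30 to 0.15, adjusted p = 0.659).

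Ndufs1 is also the only member called between the hairpins, beside 7.45% of all genes called, 4.77% lower and 2.68% higher with shTdp-43-2 than with shTdp-43-1. Its level with shTdp-43-2 was 59.6% of that with shTdp-43-1 (log2 difference -0.75 ± 0.0998 SE, 95% interval -0.97 to -0.52, limma adjusted p = 0.00313). At an unadjusted p under 0.05, 14 members were lower and 0 higher with shTdp-43-2 than with shTdp-43-1, beside 13.3% and 8.28% of all genes. The groups did not overlap for 15 members that were lower and 4 that were higher (Cox4i1, Ndufb11, Ndufv3 and Ndufaf2), beside 15.2% and 9.83% of all genes. Between the hairpins the count of calls was 4 when replicate 2 of shTdp-43-2 was left out and 3 when its replicate 3 was. Both hairpins lowered Tardbp itself to levels that overlapped (log2 difference 0.03, 95% interval -0.42 to 0.48).

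**Figure D2:**
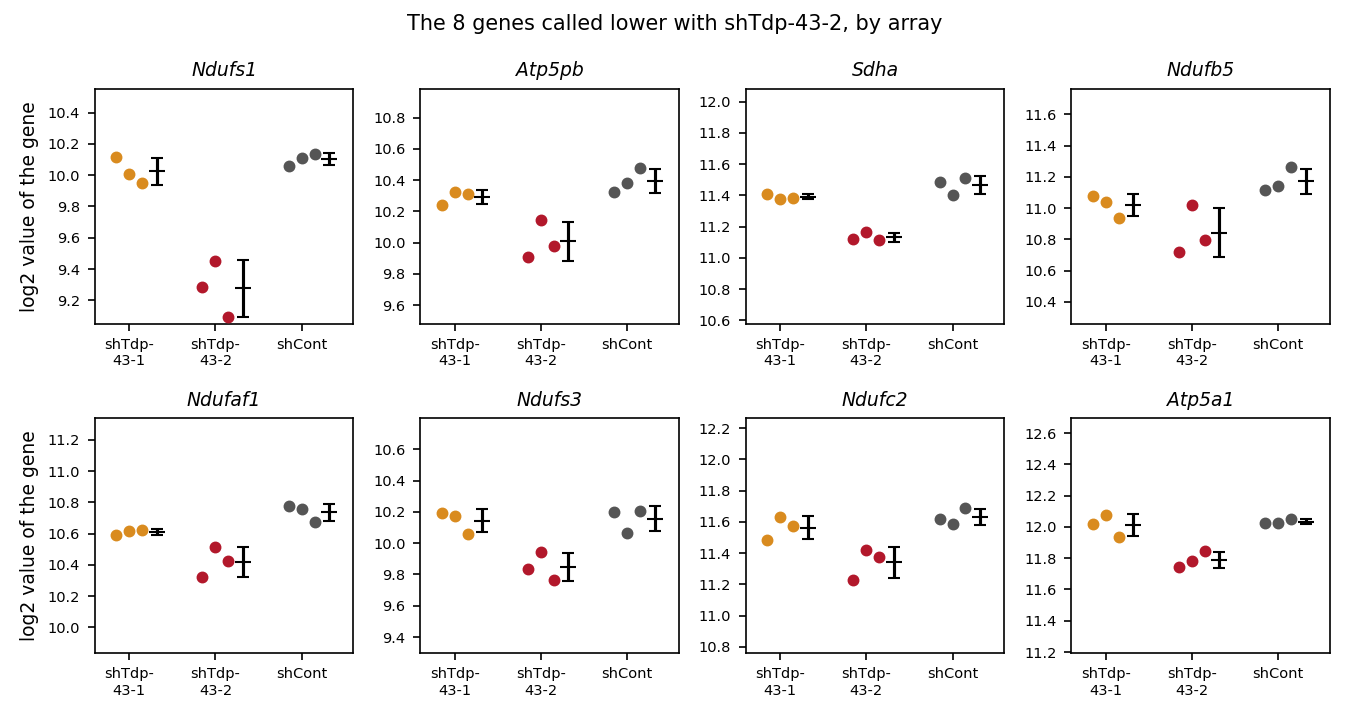
Log2 value on each array of the 8 members that fell with shTdp-43-2, with shTdp-43-1 (orange), shTdp-43-2 (red) and shCont (grey) from left to right; each panel spans the same number of log2 units, and bars beside the points give the mean and SD (n = 3 each). In each panel the 3 shTdp-43-2 arrays lie below the 3 shCont arrays.

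The Ndufs1 change could be read along the gene, which had 21 probe sets that passed. With shTdp-43-2, 20 of them were below 0, with a median change of -0.87 and a range of -1.12 to 0.00. With shTdp-43-1, 16 of the 21 were below 0, with a median of -0.08. The probe sets that stood apart with shTdp-43-2 were 4393871, at a change of 0.00, and 4685005, at -0.11.

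**Figure D3:**
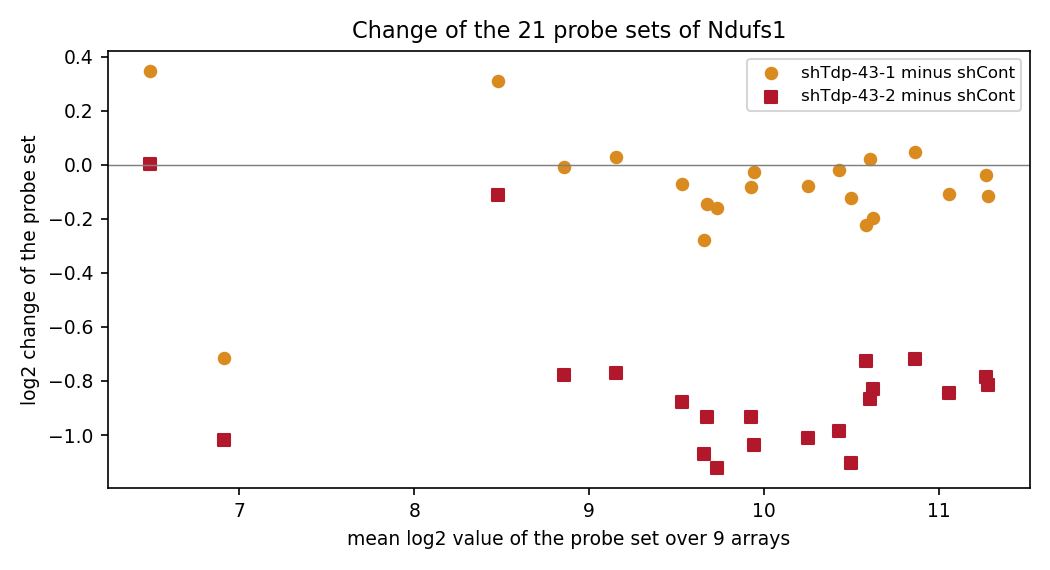
Log2 change against shCont of each of the 21 probe sets of Ndufs1, with shTdp-43-1 (orange circles) and shTdp-43-2 (red squares), against the mean log2 value of the probe set over 9 arrays. With shTdp-43-2 all but the 2 probe sets at 0.00 and -0.11 lie in a band below -0.7, while those with shTdp-43-1 lie mostly near 0.

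Ndufs3, a core subunit of the arm that reaches into the matrix, read 9.84, 9.94 and 9.76 with shTdp-43-2, against 10.20, 10.06 and 10.21 with shCont. It fell to 80.7% of shCont (log2 change -0.31 ± 0.0834 SE, limma adjusted p = 0.0339). With shTdp-43-1 Ndufs3 read 10.20, 10.18 and 10.06, a change of -0.01 (adjusted p = 0.933). The shTdp-43-2 arrays do not overlap with either of the other groups, and all 16 of its probe sets were below 0 with shTdp-43-2. Between the hairpins the difference was -0.30 (adjusted p = 0.0656).

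The other 4 tested core subunits were not called. Ndufs7, an iron-sulphur protein near the site where ubiquinone is reduced, read 12.55, 12.64 and 12.59 with shTdp-43-2, against 12.73, 12.67 and 12.69 with shCont (log2 change -0.10, 95% interval -0.26 to 0.05, adjusted p = 0.373). With shTdp-43-1 it read 12.79, 12.78 and 12.69 (change 0.05, adjusted p = 0.668). The shTdp-43-2 arrays of Ndufs7 lie just below those of both other groups. Ndufv1, which binds NADH, had a change of -0.27 with shTdp-43-2 (95% interval -0.48 to -0.06, adjusted p = 0.0826) and -0.04 with shTdp-43-1. Ndufs8 and Ndufv2, both iron-sulphur proteins, had changes of -0.18 and -0.11 with shTdp-43-2, with adjusted p of 0.30 and 0.468.

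Ndufc2, an accessory subunit of the membrane arm, read 11.23, 11.42 and 11.37 with shTdp-43-2, against 11.62, 11.59 and 11.69 with shCont. It fell to 81.8% of shCont (log2 change -0.29 ± 0.0813 SE, limma adjusted p = 0.0397). The shTdp-43-1 arrays, at 11.49, 11.63 and 11.57, gave -0.07 (adjusted p = 0.631). Its groups with shTdp-43-2 and shCont do not overlap. Ndufb5, another accessory subunit of the membrane arm, read 10.72, 11.02 and 10.80 with shTdp-43-2, against 11.11, 11.14 and 11.26 with shCont. It fell to 79.6% of shCont (log2 change -0.33 ± 0.0957 SE, limma adjusted p = 0.0456). With shTdp-43-1 Ndufb5 read 11.08, 11.04 and 10.94, all 3 also below every shCont array, and the change of -0.15 did not pass (95% interval -0.37 to 0.06, adjusted p = 0.36). All 6 probe sets of Ndufc2 and all 9 of Ndufb5 were below 0 with shTdp-43-2.

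The other 27 accessory subunits of complex I were not called with either hairpin. Those lowest with shTdp-43-2 were Ndufb3 (-0.30), Ndufa9 (-0.24), Ndufb7 (-0.23), Ndufb10 (-0.22) and Ndufa6 (-0.20), with adjusted p from 0.102 to 0.187. For Ndufa9, 10 of 11 probe sets were below 0, with a median of -0.09 and the lowest at -1.24. For Ndufb3, 3 of 5 were below 0, with a median of -0.33 and the lowest at -1.11. Those highest were Ndufa1 (0.19), Ndufv3 (0.19), Ndufs4 (0.16), Ndufa11 (0.14) and Ndufs6 (0.14), with adjusted p from 0.341 to 0.569. Ndufab1, the mitochondrial acyl carrier protein, was higher on all 3 shTdp-43-1 arrays than on any shCont array, with a change of 0.11 (adjusted p = 0.40) and of -0.07 with shTdp-43-2. The remaining ones, Ndufa2, Ndufa3, Ndufa5, Ndufa7, Ndufa8, Ndufa10, Ndufa12, Ndufa13, Ndufb2, Ndufb4, Ndufb6, Ndufb8, Ndufb9, Ndufb11, Ndufc1 and Ndufs5, had changes of -0.14 to 0.11 with shTdp-43-2.

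Complex II has 4 subunits, and 1 of them, Sdha, fell with shTdp-43-2, beside 9.92% of all genes called lower. Sdha, the flavoprotein that oxidises succinate and so joins the citrate cycle to the chain, read 11.12, 11.16 and 11.11 with shTdp-43-2, against 11.49, 11.40 and 11.51 with shCont. Its level was 79.3% of shCont (log2 change -0.33 ± 0.0686 SE, 95% interval -0.49 to -0.18, limma adjusted p = 0.0104). With shTdp-43-1 it read 11.41, 11.38 and 11.39 (change -0.08, adjusted p = 0.523). The shTdp-43-2 arrays of Sdha lie below all 6 others, and the difference between the hairpins was -0.26 (adjusted p = 0.0515). Of its 20 probe sets, 19 were below 0 with shTdp-43-2.

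Sdhb, the iron-sulphur partner of Sdha, read 10.29, 10.46 and 10.33 with shTdp-43-2, against 10.63, 10.56 and 10.63 with shCont, a change of -0.25 that lay just outside the threshold (95% interval -0.42 to -0.08, adjusted p = 0.0555). Its shTdp-43-2 arrays do not overlap with shCont, and the change with shTdp-43-1 was 0.03. Sdhc, a membrane anchor, read 11.01, 10.94 and 11.02 with shTdp-43-2, against 11.13, 11.04 and 11.03 with shCont (change -0.07, adjusted p = 0.666), and 11.08, 11.11 and 10.78 with shTdp-43-1 (change -0.08, adjusted p = 0.637). Sdhd, the other anchor, had -0.04 and 0.02 with shTdp-43-2 and shTdp-43-1. All 4 subunits were below 0 with shTdp-43-2, or 3 of 4 with arrays centred on their median, beside 49.3% of all genes without that centring. With shTdp-43-1, 2 of the 4 were below 0. The median of the complex, -0.16, was -0.19 to -0.10 in the 18 alternatives run. Some of these cannot move a change or a median of changes. They are a block for replicate number, a trend in eBayes, and leaving out an array of the other hairpin. With centring it was -0.10, beside 0.07 over all genes.

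None of the 7 tested subunits of complex III was called with either hairpin by limma, and at an unadjusted p under 0.05 only Uqcrc1 was lower, with shTdp-43-2 (1 of 7, beside 17.3% of all genes). Uqcrc1, a core protein, read 10.57, 10.54 and 10.51 with shTdp-43-2, against 10.87, 10.81 and 10.76 with shCont. The groups do not overlap, and the change was -0.27 (95% interval -0.47 to -0.07, adjusted p = 0.0698), beside -0.04 with shTdp-43-1. Uqcrc2, the other core protein, read 11.95, 12.13 and 12.03 with shTdp-43-2, against 12.04, 12.10 and 12.18 with shCont (change -0.07, adjusted p = 0.605), and 12.09, 12.09 and 12.03 with shTdp-43-1 (change -0.04, adjusted p = 0.809). Uqcrb, a small subunit, read 12.04, 12.14 and 12.05 with shTdp-43-2, against 11.97, 12.21 and 12.12 with shCont (change -0.02, 95% interval -0.21 to 0.17, adjusted p = 0.903). With shTdp-43-1 Uqcrb read 12.08, 12.15 and 12.05 (change -0.003, adjusted p = 0.987). The arrays of all 3 groups overlap for both genes. Uqcrfs1, the Rieske iron-sulphur protein, had -0.14 with shTdp-43-2, while Uqcrh, Uqcrq and Uqcr11, small subunits, had 0.07, 0.13 and 0.15. The median of the complex was -0.02 with shTdp-43-2, and 0.05 with arrays centred on their median, beside 0.07 over all genes with that centring.

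Complex IV had 0 calls among 16 tested members with either hairpin by limma. At an unadjusted p under 0.05, 2 of the 16 were higher with shTdp-43-2 (Cox8c and Cox6b1) and 1 with shTdp-43-1 (Cox4i2), beside 11.3% and 12.2% of all genes. Its medians, 0.05 and 0.06 for shTdp-43-1 and shTdp-43-2, were above 0 in all 18 alternatives run, at 0.01 to 0.08 and 0.04 to 0.13. These 18 include the alternatives, named under complex II, that cannot move a median. The shTdp-43-1 median was 0.01 without replicate 2 of shTdp-43-1. Medians over all genes were often above 0 too, at 0.02 and 0.00 in the main fit. With arrays centred, complex IV had 0.08 and 0.13, beside 0.05 and 0.07 over all genes. With the filter at the 25th percentile, complex IV had 0.02 with shTdp-43-1, below the 0.03 of all genes. Over all genes with 1 to 5 and with 6 to 8 probe sets that passed, numbers like those of complex IV, the medians were also above 0, at 0.11 and 0.05 for shTdp-43-1 and 0.06 and 0.03 for shTdp-43-2. Ndufa4, named as a complex I gene and now known as a complex IV subunit, was counted here and had -0.09 and 0.05 with shTdp-43-1 and shTdp-43-2.

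Cox6a1, the widely used form of its subunit, read 12.40, 12.50 and 12.44 with shTdp-43-2, against 12.25, 12.32 and 12.40 with shCont (log2 change 0.13, 95% interval -0.04 to 0.30, adjusted p = 0.323). With shTdp-43-1 it read 12.35, 12.47 and 12.38 (change 0.08, adjusted p = 0.535). Cox8a, likewise the widely used form, read 12.29, 12.26 and 12.22 with shTdp-43-2, against 12.17, 12.11 and 12.18 with shCont (change 0.11, adjusted p = 0.456), and 12.32, 12.27 and 12.07 with shTdp-43-1 (change 0.07, adjusted p = 0.637). For Cox6a1 and Cox8a the shTdp-43-2 arrays lie at or just above the top of shCont and the shTdp-43-1 arrays overlap with it. Cox6b1 did the same, with a change of 0.20 with shTdp-43-2 (95% interval 0.01 to 0.38, adjusted p = 0.144). The other widely used forms, Cox4i1, Cox5a, Cox5b, Cox6c, Cox7a2, Cox7b and Cox7c, had changes of -0.07 to 0.22 with shTdp-43-2.

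Forms of complex IV subunits best known from particular tissues had 2 to 7 probe sets that passed where they were tested, and none was called. Cox4i2, best known from lung, was higher on all 3 shTdp-43-1 arrays than on any shCont array, at 7.80, 7.84 and 7.74 against 7.62, 7.59 and 7.43 (change 0.25, adjusted p = 0.17), and had -0.06 with shTdp-43-2. Cox8c, a testis form with 2 probe sets that passed, had 0.30 with shTdp-43-1 and 0.34 with shTdp-43-2, with adjusted p of 0.25 and 0.161, and its arrays do not overlap with shCont for either. Cox6b2, also a testis form, had 0.39 and 0.28 with shTdp-43-1 and shTdp-43-2. Cox6a2 and Cox8b, forms of heart and skeletal muscle, had -0.42 and 0.13 with shTdp-43-2, and their arrays overlap with shCont.

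ATP synthase had 15 tested subunits, of which 2 fell with shTdp-43-2 and 0 were called with shTdp-43-1. The 2 were 13.3% of its subunits, beside 9.92% of all genes called lower with shTdp-43-2. Atp5pb, subunit b of the stalk that holds the head still, read 9.91, 10.15 and 9.98 with shTdp-43-2, against 10.33, 10.38 and 10.48 with shCont. It fell to 76.6% of shCont (log2 change -0.38 ± 0.0859 SE, 95% interval -0.58 to -0.19, limma adjusted p = 0.0151). With shTdp-43-1 it read 10.24, 10.32 and 10.31, all just below shCont, with a change of -0.10 (adjusted p = 0.489). The shTdp-43-2 arrays of Atp5pb lie below all others, all 17 of its probe sets were below 0 with shTdp-43-2, and the difference between the hairpins was -0.28 (adjusted p = 0.0829).

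Atp5a1, the alpha subunit of the catalytic head, read 11.74, 11.78 and 11.85 with shTdp-43-2, against 12.03, 12.03 and 12.05 with shCont. It fell to 84.4% of shCont (log2 change -0.24 ± 0.0722 SE, limma adjusted p = 0.0481). The shTdp-43-1 arrays, at 12.02, 12.08 and 11.94, gave -0.02 (adjusted p = 0.864). Its shTdp-43-2 arrays lie below all others. Atp5b, the beta subunit that carries the catalytic sites, read 13.27, 13.45 and 13.37 with shTdp-43-2, against 13.43, 13.45 and 13.45 with shCont (change -0.08, 95% interval -0.26 to 0.09, adjusted p = 0.529). With shTdp-43-1 it read 13.39, 13.50 and 13.38 (change -0.02, adjusted p = 0.913). The alpha and beta subunits, which alternate in the head, thus stood on different sides of the threshold, and the difference between their changes was not tested.

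Atp5d, the delta subunit of the rotor, read 12.08, 12.14 and 12.02 with shTdp-43-2, against 12.26, 12.22 and 12.25 with shCont (change -0.16, 95% interval -0.34 to 0.02, adjusted p = 0.226), and 12.27, 12.22 and 12.06 with shTdp-43-1 (change -0.06, adjusted p = 0.664). Its shTdp-43-2 arrays do not overlap with shCont. Atp5c1, the shaft, and Atp5e, a small rotor subunit, had -0.15 and -0.18 with shTdp-43-2. All 5 subunits of the head and its rotor shaft were thus below 0 with shTdp-43-2, with a median of -0.16, beside 49.3% of all genes. This count was the same under both other scalings. With shTdp-43-1 all 5 were below 0 too, with a median of -0.06, beside 46.1% of all genes. There the count was 3 with arrays centred and 4 with quantile normalization. The 3 genes of the c ring, which turns in the membrane, encode the same mature protein: Atp5g1, Atp5g2 and Atp5g3 had 0.28, 0.17 and 0.01 with shTdp-43-1, and 0.02, 0.22 and -0.10 with shTdp-43-2. The other stalk and membrane subunits, Atp5h, Atp5j, Atp5j2, Atp5k, Atp5l and Atp5o, had changes of -0.20 to 0.19 with shTdp-43-2, and none was called. Over the whole enzyme the median was -0.10 with shTdp-43-2 and -0.15 to -0.03 in the 18 alternatives run, some of which cannot move it. With arrays centred on their median it was -0.03, beside 0.07 over all genes. It was -0.15 when replicate 2 of shTdp-43-2 was left out.

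**Figure D4:**
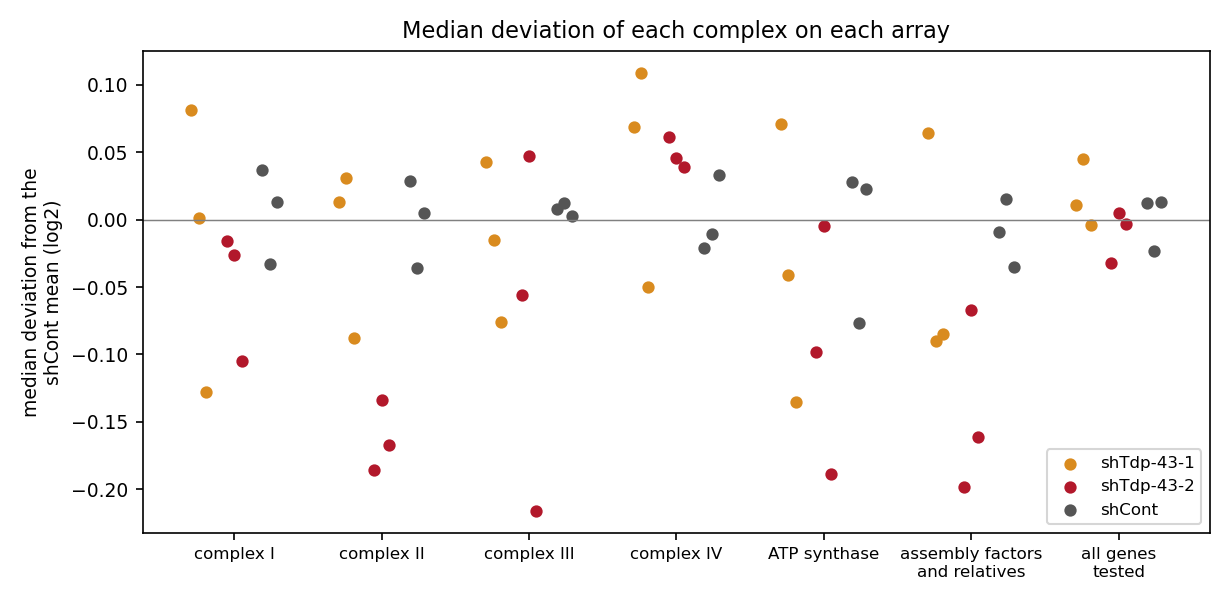
Median over the tested members of each complex of the log2 deviation from the shCont mean, on each of the 9 arrays: shTdp-43-1 (orange), shTdp-43-2 (red) and shCont (grey). For complex II the 3 shTdp-43-2 arrays lie between -0.186 and -0.134, below all other arrays, for complex IV they lie just above the shCont arrays, and for complexes I and III and ATP synthase they overlap with shCont.

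Among members that are not stable subunits, Ndufaf1, an assembly factor of complex I, fell with shTdp-43-2. It read 10.32, 10.51 and 10.42 with shTdp-43-2, against 10.77, 10.76 and 10.67 with shCont, 80.2% of the shCont level (log2 change -0.32 ± 0.0766 SE, limma adjusted p = 0.021). With shTdp-43-1 it read 10.59, 10.62 and 10.62, all below shCont, with a change of -0.13 (95% interval -0.30 to 0.05, adjusted p = 0.347). Ndufaf2, another assembly factor, had -0.20 with shTdp-43-1 and -0.04 with shTdp-43-2. Cox7a2l, which helps to join complexes into larger assemblies, Dmac2, which takes part in building complex I, Dmac2l, also called factor B, and Ndufa4l2, a relative of Ndufa4, had -0.12, 0.11, -0.17 and -0.21 with shTdp-43-2.

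The 8 calls were not equally steady. Over 18 alternatives (other filters, summaries, scalings and models, and each array left out), Ndufs1 was called in 18, with adjusted p of 0.000129 to 0.00575, and Sdha in 17, with 0.00149 to 0.0589. Atp5pb was called in 15 (adjusted p 0.0058 to 0.104), and among arrays its call was lost without shTdp-43-2 replicate 1 or shCont replicate 3. Ndufaf1 was called in 13 (0.00767 to 0.0829), and its call was lost when replicate 1 or 3 of shTdp-43-2, or replicate 1 or 2 of shCont, was left out. Ndufs3 was called in 13 (0.018 to 0.114), and its call was lost when replicate 2 of shTdp-43-1, replicate 1 or 3 of shTdp-43-2, or replicate 1 or 3 of shCont was left out. Ndufc2 was called in 8 (0.0104 to 0.205), and kept its call among arrays only without shTdp-43-1 replicate 1 or shTdp-43-2 replicate 2. Ndufb5 was called in 5 (0.0174 to 0.149), among arrays only without shTdp-43-2 replicate 2. Atp5a1 was called in 4 (0.00839 to 0.147) and lost its call without any of the 9 arrays. The sign of each change was the same in all 18, some of which can alter a p-value but not a change.

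Members with more probe sets were called more often, and so were genes in general. With shTdp-43-2, lower calls went to 0 of 23 members with 1 to 5 probe sets that passed, 1 of 31 with 6 to 8, 2 of 15 with 9 to 11 and 5 of 14 with 12 or more. The shares over all genes in these classes were 3.07%, 8.68%, 11.8% and 15.1%. The classes were set with the values known and are a description. Ndufs1, Sdha, Atp5a1, Atp5pb and Ndufs3 had 16 to 21 such probe sets, and the tested members of complex IV had 1 to 8.

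**Figure D5:**
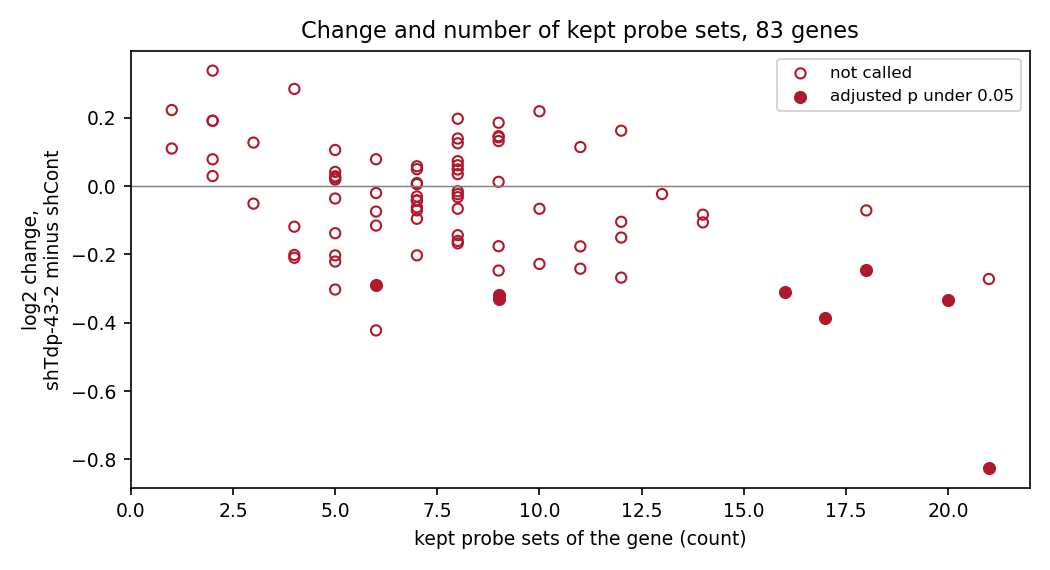
Log2 change with shTdp-43-2 against shCont of the 83 tested members, against the number of their probe sets that passed the filter; filled points passed an adjusted p under 0.05. Of the 8 filled points, 5 lie at 12 probe sets or more and Ndufs1 lies at 21.

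Exon usage asks whether a probe set changed otherwise than the rest of its gene, and was read on 671 probe sets of members. Taking each probe set with its own spread, limma called 0 with either hairpin, beside 0.00517% of all 251689 probe sets with shTdp-43-1 and 0.138% with shTdp-43-2; this test was chosen after seeing the data. At an unadjusted p under 0.05 it gave 10 lower and 19 higher of the 671 with shTdp-43-1, beside 3.81% and 3.97% of all probe sets. With shTdp-43-2 it gave 21 lower and 19 higher, beside 4.67% and 4.65%. limma's diffSplice, which gives all probe sets of a gene a shared spread, called 1 with shTdp-43-1 (beside 0.476% of all) and 7 with shTdp-43-2 (beside 1.22%).

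Those called with shTdp-43-2 by diffSplice lay in Cox4i2, Ndufa9, Ndufs1, Uqcrc1 and Sdha, and 4 of the 7 were above the rest of their gene. On simulated data most diffSplice calls were false. Probe set 4393871 of Ndufs1 was 0.87 above the rest of its gene with shTdp-43-2 (diffSplice adjusted p = 0.00125, own spread 0.0652). Probe set 4933166 of Cox4i2 read 6.36, 6.60 and 6.13 with shTdp-43-2, against 7.67, 7.76 and 7.10 with shCont, which is 1.26 below the rest of its gene on the log2 scale (diffSplice adjusted p = 0.00219, own spread 0.099). Probe set 4491121 of Ndufa9 read 6.62, 8.39 and 7.12 with shTdp-43-2, against 8.37, 8.88 and 8.60 with shCont (diffSplice adjusted p = 0.000175, own spread 0.389). Its shTdp-43-2 arrays spread over more than 1 log2 unit and overlap with shCont. Probe sets 4694550 of Uqcrc1 and 4660069 of Sdha were 0.62 and 0.51 above the rest of their genes, with own-spread adjusted p of 0.38 and 0.357. With shTdp-43-1, probe set 4814570 of Ndufs7 was 0.53 above the rest of its gene (diffSplice adjusted p = 0.00657, own spread 0.394).

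Several genes that would match by present-day name carry another name on the array and were not members: Atp5md, Atp5mpl, Ndufa11b, Ndufaf3 to Ndufaf8 and Uqcr10. None was called against shCont with either hairpin. Ndufaf4, an assembly factor of complex I, was higher with shTdp-43-2 than with shTdp-43-1 (log2 difference 0.39, limma adjusted p = 0.0309).

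A list of assembly factors outside the naming rule (34 tested) included 4 lower and 2 higher with shTdp-43-1, and 8 lower and 2 higher with shTdp-43-2. It was chosen with earlier results of these data known, and leaves out Ndufaf3 to Ndufaf8, of which none was called against shCont. The lower calls were 11.8% and 23.5% of this list, beside 3.36% and 9.92% of all genes. Higher calls were 3.27% and 5.58% of all genes. Their median log2 change was -0.15 and -0.16, and stayed below 0 under both other scalings. Ttc19, which keeps complex III working, read 8.98, 9.14 and 8.90 with shTdp-43-2, against 10.44, 10.42 and 10.40 with shCont, and fell by 1.41 on the log2 scale (limma adjusted p = 7.59e-05). With shTdp-43-1 Ttc19 read 10.17, 10.12 and 10.19 (change -0.26, adjusted p = 0.0858), and the difference between the hairpins was -1.15 (adjusted p = 0.000315). Atpaf1, a chaperone of the beta subunit of ATP synthase, fell with both hairpins, by 0.70 with shTdp-43-1 and 0.85 with shTdp-43-2 (adjusted p = 0.00827 and 0.00119). Cox19, which serves the assembly of complex IV, rose with both, by 0.84 and 1.08 (adjusted p = 0.00341 and 0.000378).

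Enzymes that feed the chain were called in both directions, and with shTdp-43-2 most of them were below 0. Of 18 tested enzymes of pyruvate oxidation and the citrate cycle, 1 was lower and 1 higher with shTdp-43-1, and 4 lower and 1 higher with shTdp-43-2. All genes had 3.36% lower and 3.27% higher calls with shTdp-43-1, and 9.92% and 5.58% with shTdp-43-2. The median of these enzymes was -0.02 with shTdp-43-1 (0.00 and 0.01 under centring and quantile normalization). With shTdp-43-2 it was -0.16 (-0.09 and -0.14 under the same scalings), and 16 of the 18 were below 0, beside 49.3% of all genes. Cs, citrate synthase, rose by 0.51 with shTdp-43-1 and 0.48 with shTdp-43-2 (limma adjusted p = 0.0184 and 0.0101). Idh3g, a subunit of isocitrate dehydrogenase, and Pdhb, a subunit of pyruvate dehydrogenase, fell with shTdp-43-2 (-0.42 and -0.39, adjusted p = 0.0205 and 0.0208). Fh1, fumarase, fell with both hairpins (-0.34 and -0.36), and Dlst, of the oxoglutarate dehydrogenase complex, fell with shTdp-43-2 (-0.30). Of 19 glycolysis genes, 1 was lower with shTdp-43-1 (Slc2a1, a glucose transporter, -0.48). With shTdp-43-2, 3 were lower: Slc2a1 (-0.91), Eno2, the neuronal enolase (-0.88), and Hk2, a hexokinase (-0.62).

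Of 18 regulators of mitochondrial gene expression, 2 were lower and 1 higher with shTdp-43-1, and 3 lower and 1 higher with shTdp-43-2. Beside these counts and those of the next lists stand the shares of all genes. They were 3.36% lower and 3.27% higher with shTdp-43-1, and 9.92% and 5.58% with shTdp-43-2. Twnk, the helicase that copies mitochondrial DNA, fell by 0.44 with shTdp-43-1 and 0.93 with shTdp-43-2 (limma adjusted p = 0.0172 and 0.000229). Gabpb1, the partner of the ETS factor Gabpa, rose with shTdp-43-2 (0.49, adjusted p = 0.00536), and Polg2, a subunit of the mitochondrial DNA polymerase, fell (-0.46, adjusted p = 0.00681). Nrf1, which encodes the factor whose letters were searched in the promoters, fell with shTdp-43-2 (-0.24, adjusted p = 0.0407). With shTdp-43-1, Tfb1m, which modifies mitochondrial ribosomal RNA, fell (-0.69), and Ppargc1a, a coactivator of mitochondrial genes, rose (0.42). Among 17 carriers of the inner membrane and related proteins, 1 was lower and 1 higher with shTdp-43-1, and 2 lower and 1 higher with shTdp-43-2. Slc25a1, the citrate carrier, rose (0.59 with shTdp-43-1 and 0.95 with shTdp-43-2), while Slc25a27 and Ucp2, both of the uncoupling protein family, fell with shTdp-43-2 (-0.41 and -0.38). Of 9 genes of oxidant defence, 1 was higher with shTdp-43-1 (Sod2, 0.30) and 2 were lower with shTdp-43-2 (Gpx1, -0.70, and Txnrd2, -0.54). Of 77 genes named for the mitochondrial ribosome, 1 was lower and 1 higher with shTdp-43-1, and 4 lower and 3 higher with shTdp-43-2. Their medians were -0.08 and -0.12 and stayed below 0 under both other scalings. Below 0 were 56 and 58 of the 77, beside 46.1% and 49.3% of all genes. Mrps36, now also known as a part of the oxoglutarate dehydrogenase complex, rose by 1.26 with shTdp-43-1 and 1.66 with shTdp-43-2 (adjusted p = 0.00121 and 9.85e-05), while Mrpl27 and Mrps34 fell with shTdp-43-2 (-0.72 and -0.43).

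Averages of several marker lists moved with the hairpins, and their part in the results above was not tested. Calls over all genes were 3.36% lower and 3.27% higher with shTdp-43-1, and 9.92% and 5.58% with shTdp-43-2. Markers of fibroblasts and pericytes averaged log2 8.44 to 8.54 with shTdp-43-1, 8.44 to 8.51 with shTdp-43-2 and 8.78 to 8.86 with shCont, and of 8 tested, 3 were lower with shTdp-43-1 and 4 with shTdp-43-2. These markers did not move together. Dcn, Fn1, Pdgfrb and Rgs5 were below 0 with both hairpins, while the collagens Col1a1, Col1a2 and Col3a1 had 0.14 to 0.15, not called. Lum had -1.26 with shTdp-43-1 and 0.24 with shTdp-43-2. Astrocyte markers averaged 10.23 to 10.27 with shTdp-43-1, 10.11 to 10.20 with shTdp-43-2 and 10.25 to 10.43 with shCont, and of 8 tested, 1 was lower with shTdp-43-1 and 2 with shTdp-43-2. Inhibitory neuron markers averaged 10.31 to 10.55 with shTdp-43-1, 10.16 to 10.18 with shTdp-43-2 and 10.29 to 10.49 with shCont. Of 7 tested, 0 were lower and 1 higher with shTdp-43-1, and 3 were lower and 1 higher with shTdp-43-2. Excitatory neuron markers averaged 10.35 to 10.61 with shTdp-43-1, 10.24 to 10.39 with shTdp-43-2 and 10.43 to 10.55 with shCont. Of 6 tested, 1 was lower and 1 higher with shTdp-43-1, and 1 was lower with shTdp-43-2. Of 9 neuron markers 2 were lower with shTdp-43-1 (Nefl and Nefm) and 1 with shTdp-43-2 (Nefl). Markers of the oligodendrocyte lineage, microglia and endothelium had 0 calls with either hairpin (limma, 6, 6 and 4 tested), and those of progenitors and cycling cells had 1 of 5 higher with shTdp-43-2.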

How the data were processed

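RNA of 9 samples, 3 a group, was measured on exon arrays, 1 array each, from 100 ng of RNA. The authors deposited a log2 value for each of 1256831 probe sets, computed by RMA in Expression Console, per the labels, and the genome build was mm9, per the submitters' processing notes. RMA sets all arrays to a common distribution, so a change shared by most probes is largely removed. The number of arrays limits the precision, and an exact two-sided permutation test of 3 against 3 cannot go below p = 0.1, so none was run.

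Probe sets with 1 symbol (318760) were named from the platform annotation, with symbols updated through RefSeq (GRCm38.p6; 4227 updated). Gene values were fitted in limma 3.58.1 (R 4.3.3; lmFit and eBayes, 6 residual degrees of freedom). diffSplice was the planned test of exon usage. On simulated data most of its calls were false, so each probe set was also tested with its own spread, against the mean of the others of its gene. Fits were checked on simulated data. The members, complexes and lists were chosen with earlier results of these data known. Named were all members. Full values went to called members and to the 2 subunits of each complex with the highest mean signal (a rule for naming only, not a comparison of levels), and up to 3 called genes were named from each other list. Other genes, such as those just outside the threshold, were chosen after their values were seen. Some subunits of these complexes are not reported here.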

Additional observations from a re-analysis of the deposited data

Results flagged for a closer look

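Ndufs1, a core subunit of complex I, is listed because the effects of the 2 hairpins on it differed by a test of the difference itself: shTdp-43-2 minus shTdp-43-1 was -0.75 on the log2 scale (SE 0.0998, limma adjusted p = 0.00313), and it was called in all 18 alternatives run, at -0.88 to -0.66.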

How the results depend on the processing

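The count of members called with shTdp-43-1 was 0 in all 18 alternatives by limma. With shTdp-43-2 (8 called) it was 2 with the median of probe sets, 5 with arrays centred on their median, and 2 to 9 with each array left out. Requiring at least 3 probe sets gave 10 of 76 members, beside 14.1% of all genes called lower. Between the hairpins (1 called) it was 4 with the 75th percentile as filter, 4 with at least 3 probe sets, 2 with centring, 5 with quantile normalization, 6 with a trend in eBayes, and 1 to 4 with each array left out. Over all genes, the median of probe sets gave 817 calls with shTdp-43-1 (beside 1334) and 903 between the hairpins (beside 1501). With each array left out these counts were 408 to 1504 with shTdp-43-1, 1830 to 3141 with shTdp-43-2 and 596 to 1261 between the hairpins. Calls between the hairpins split 961 lower and 540 higher, 926 and 939 with centring, and 1049 and 879 with quantile normalization. diffSplice calls with shTdp-43-1 (1) were 2 with the 25th percentile as filter, 5 with the replicate block, 0 with own spreads, and 0 to 3 with each array left out. With shTdp-43-2 (7) they were 4 with the 75th percentile, 13 with the replicate block, 0 with own spreads, and 4 to 11 with each array left out. Same-numbered arrays did not deviate together throughout, so the replicate numbers were not taken as pairs. Their correlations were 0.258 to 0.512 for replicate 1, -0.287 to 0.02 for replicate 2 and 0.103 to 0.221 for replicate 3. The replicate block gave 0, 6 and 1 member calls with shTdp-43-1, with shTdp-43-2 and between the hairpins, and 1519, 3357 and 1548 over all genes. The causes of these shifts were not tested. None of the 8 called changes reversed. Dim signal left Cox7b2 with none of 4 probe sets and Atp5l with 2 of 11, and Ndufb4 and Cox5b have 1 probe set each on the array.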
